A study of Mus musculus with 10 samples.

Results

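The genes described here are *Dot1l*, which encodes the methyltransferase of lysine 79 in histone H3, and 9 genes whose proteins work with it or with its partners in transcript elongation. They were taken by name: *Dot1l*, *Mllt10*, *Mllt6*, *Mllt3* and *Mllt1* for the DOT1L complex (DotCom), and *Aff1*, *Aff3*, *Aff4*, *Ell* and *Cdk9* for the super elongation complex. All 10 of 10 were found among the 54146 genes of the deposited count table, and all 10 were among the 19773 genes that passed the filter on low counts and were tested. The question was whether the partner genes differed between *Dot1l*-cKO and control embryos, in a data set where the reads counted over the whole *Dot1l* gene were not lower in the embryos labelled *Dot1l*-cKO.

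DOT1L methylates its lysine on nucleosomes of transcribed genes, and it differs from most histone lysine methyltransferases in having no SET domain. AF10 and AF17 (encoded by *Mllt10* and *Mllt6*) bind DOT1L through coiled coils and favour the higher methylation states, while the YEATS domain proteins AF9 and ENL (encoded by *Mllt3* and *Mllt1*) read acylated histones and bind either DOT1L or an AFF scaffold protein. The AFF proteins build the super elongation complex, in which ELL and the kinase CDK9 help RNA polymerase II to leave its paused state, and fusions of MLL to several of these partners drive leukaemia through DOT1L.

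RNA was sequenced from the lumbar spinal cord of 10 single mouse embryos at E12.5, of which 5 were controls and 5 were *Dot1l*-cKO. Litter 1 held 3 controls (Ctr_181-4, Ctr_181-5, Ctr_181-9), without transgene and with both *Dot1l* alleles floxed, and 3 *Dot1l*-cKO embryos (Mut_181-2, Mut_181-3, Mut_181-7). Litter 2 held 2 controls (Ctr_190-5, Ctr_190-7), without transgene and with 1 floxed and 1 wild type allele, and 2 *Dot1l*-cKO embryos (Mut_190-4, Mut_190-6). Every *Dot1l*-cKO embryo carried 1 copy of Wnt1cre2 and 2 floxed alleles (Wnt1cre2/+; Dot1l fl/fl), and the labels give the strain B6.Cg-E2f1Tg(Wnt1-cre)2Sor/J for all embryos, so that every embryo had at least 1 floxed allele and no control had the transgene. Transgene and deletion cannot be told apart in this design. The Wnt1-cre driver is active in the dorsal neural tube and reaches fewer ventral cells, and by the labels the ganglia beside the cord were not removed. The share of recombined cells per library was not measured. In such bulk samples, fewer cells of a type and less RNA per cell cannot be told apart.

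Counted reads per library totalled 40949585 to 61194291 for controls, and 54870771 to 68928443 for *Dot1l*-cKO. The members were counted deeply, from 726 reads for *Aff1* in its lowest library to 22661 for *Aff4* in its highest. Neuronal markers (8 of 8 tested) summed to between 8271 and 9348 CPM (counts scaled to library size after TMM normalization) per embryo. Ganglion neuron markers summed to between 422 and 993 CPM and microglial markers to between 37.8 and 52.6 CPM. Both *Dot1l*-cKO embryos of litter 2 had *Xist* at 6.00 and 6.79 CPM and the Y-linked *Ddx3y* at 46.7 and 41.5 CPM, whereas *Xist* was between 499 and 890 CPM in the other 8 embryos. Comparisons within litter 2 therefore set these 2 embryos against *Xist*-expressing controls. The test over both litters holds the same imbalance, since these 2 embryos are in the *Dot1l*-cKO group and every control expressed *Xist*.

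The *Dot1l* gene (ENSMUSG00000061589) lies on the plus strand of mm10 at chr10:80755206-80795461. Its transcript *Dot1l*-201 has 28 exons and 6808 bases, and 24 of the exons hold less than 5% of it each. Exons 2 to 14 have at most 232 bases (3.41% of the transcript) each, while exons 27 and 28 together hold 42.7%. Which exon the floxed allele loses is not given in the sources used here, and reads per exon were not analysed here. The study's 4 mouse *Dot1l* primers are shown because they mark the part of the gene that its own assays followed.
genotyping forward: gcctacagccttcatcattc
genotyping reverse: cccatacagtactcacCGGAT
qPCR forward: tgaggctcaagtcgcctgt
qPCR reverse: gcatcatggtgcttgtcGTA
In the genotyping reverse primer the capitals mark 5 bases whose reverse complement equals the last 5 bases of exon 2 and of no other exon of *Dot1l*-201. Exon 2 (chr10:80764602-80764645) has 44 bases, 0.646% of the transcript, and its length is not a multiple of 3. Neither genotyping primer matched the spliced transcript in full. The qPCR forward primer matched exon 1 at transcript bases 258 to 276, and the reverse primer matched bases 317 to 336 across the junction of exons 1 and 2, with its capitals marking the 3 bases that lie in exon 1. The amplicon has 79 bases and covers parts of the first 2 exons. Without exon 2, 99.4% of the bases of *Dot1l*-201 would remain.

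**Figure D1:**
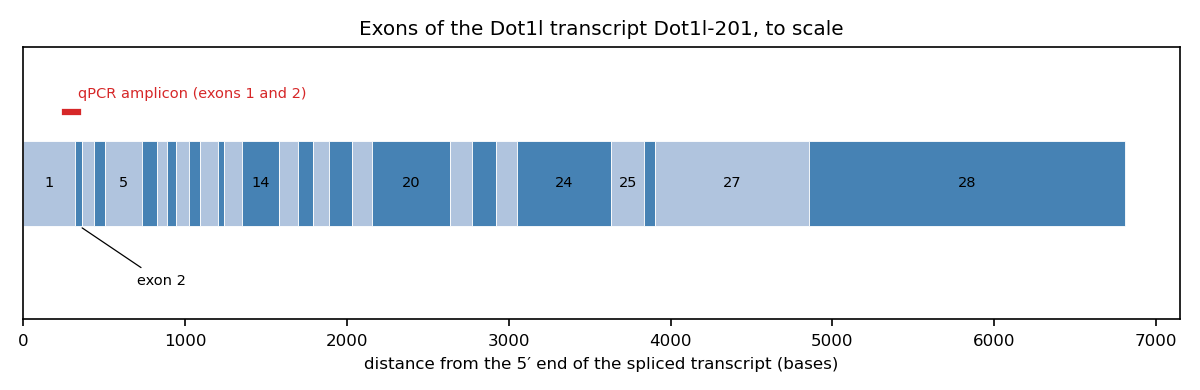
Exons of the transcript Dot1l-201 drawn to scale along the spliced transcript, in bases from its 5′ end, with alternating colours for the 28 exons. The 79-base qPCR amplicon of exons 1 and 2 sits at the 5′ end, and exons 27 and 28 make up 42.7% of the length.

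*Dot1l* itself was not lower in the embryos labelled *Dot1l*-cKO. In litter 1 it was at 87.6, 94.3 and 107 CPM in the controls and at 97.8, 110.0 and 101 CPM in the *Dot1l*-cKO embryos, and in litter 2 at 91.0 and 89.8 CPM in the controls and 112 and 107 CPM in the *Dot1l*-cKO embryos. All 5 *Dot1l*-cKO values lay above 4 of the 5 controls, and control Ctr_181-9 lay among them. Of these 5 values, 3 were above all controls of their own litter (share over all tested genes not counted). The means were 94.0 ± 7.85 CPM (SD, n = 5) and 106 ± 6.18 CPM (SD, n = 5). The log2 fold change of 0.17 (95% interval 0.04 to 0.30) had an adjusted p of 0.130 (quasi-likelihood test of edgeR with litter in the model, Benjamini-Hochberg adjustment over all tested genes), so it did not pass the threshold of 0.05, and the interval lay above 0. It was 0.10 (adjusted p = 0.630) in litter 1 alone and 0.09 (0.664) with *Xist* as a covariate. These counts therefore do not check the genotype, and the embryos are named by their label.

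In that test 1 of the 10 members passed, *Mllt10*, which fell. Of all tested genes 2.99% passed, with 1.9% higher and 1.09% lower, so the count of 1 is described and not read as a property of the group. The log2 fold changes of the 10 genes were 5 positive and 5 negative with a median of 0.01, against a median of -0.01 and 48.0% positive over all tested genes. At an unadjusted p below 0.05 there were 5 members (3 positive and 2 negative), against 21.7% of all tested genes. The standard errors of the members lay between 0.05 and 0.07 on the log2 scale, so that differences of the size of a doubling or a halving lie far outside every interval.

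**Figure D2:**
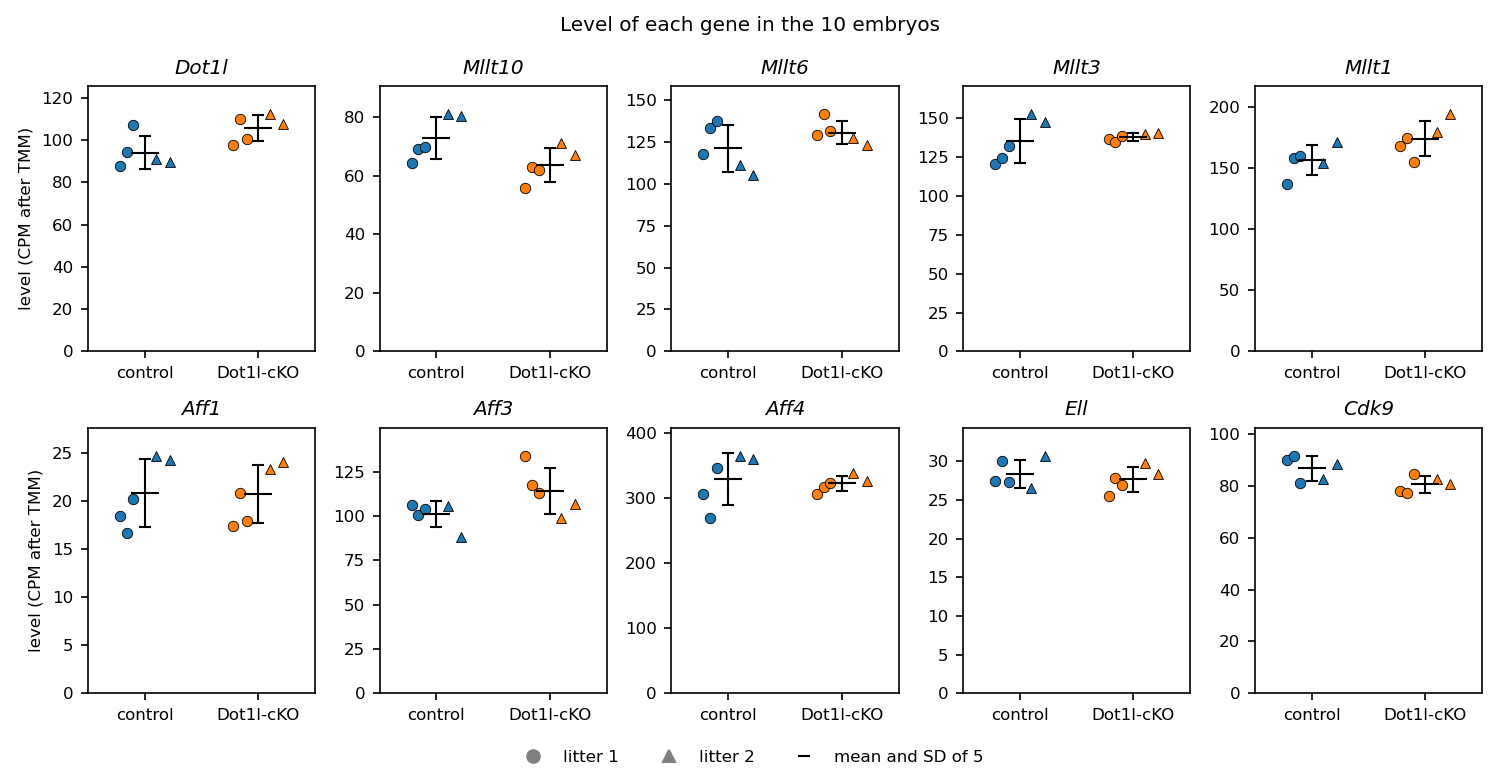
Level of each of the 10 genes in each embryo in CPM after TMM normalization, on axes from 0, with controls in blue, Dot1l-cKO in orange, litter 1 as circles and litter 2 as triangles. Bars give the mean and SD of 5 embryos. Mllt10 is the gene whose Dot1l-cKO values lie below all controls of their own litter in both litters.

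Of the DOT1L-binding cofactors, *Mllt10* (AF10, ENSMUSG00000026743, chr2:18055237-18212388, plus strand) decreased. In litter 1 it was at 64.6, 69.3 and 69.8 CPM in controls and at 55.7, 63.0 and 62.0 CPM in *Dot1l*-cKO embryos, and in litter 2 at 81.0 and 80.4 CPM in controls and at 71.2 and 67.2 CPM in *Dot1l*-cKO embryos. Every *Dot1l*-cKO embryo was below all controls of its own litter, although the groups of 5 overlapped because both groups were higher in litter 2. *Mllt10* was the 1 member of which this was true in both litters in the same direction, an ordering that 7.95% of all tested genes had (4.15% lower). The means were 73.0 ± 7.30 CPM and 63.8 ± 5.80 CPM (SD, n = 5 each), and the log2 fold change was -0.19 (SE 0.05, 95% interval -0.29 to -0.09, 0.875 times the control level, edgeR adjusted p = 0.0461). The adjusted p lay close to the threshold. It was 0.00828 with DESeq2's Wald test and 0.0530 with limma-voom, and the edgeR call was also lost with library size only (0.0603), with *Xist* as a covariate (0.274) and without litter in the model (0.479). Without the filter on low counts *Dot1l*, *Mllt1* and *Aff3* passed as well, all higher, making 4 of 10 members among 6.25% of all genes. In fits that omitted 1 embryo at a time, the call was kept without Mut_181-3 (adjusted p = 0.0412) or Mut_181-7 (0.0271) and lost without any 1 of the other 8 (0.0718 to 0.142), with log2 fold changes of -0.21 to -0.16. Of the exon bases of *Mllt10*, 749 (12.7%) overlap *Dnajc1* on the opposite strand, whose own log2 fold change was -0.07 (SE 0.06, edgeR adjusted p = 0.506). Whether the counting used strand is not given in the sources used here, and the part of these bases in the result was not tested.

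*Mllt6* (AF17, chr11:97663414-97685463, plus strand), the paralogue of *Mllt10*, had values on the other side. In litter 1 it was at 118, 133 and 137 CPM in controls and at 129, 141 and 132 CPM in *Dot1l*-cKO embryos, with litter 2 controls at 111 and 105 CPM and their littermates at 127 and 123 CPM. The groups overlapped in litter 1 and not in litter 2. Its log2 fold change of 0.11 (95% interval -0.0018 to 0.23) had an edgeR adjusted p of 0.237. Since a ratio within a library needs no scaling between libraries, the counts of both paralogues were also compared directly. The log2 ratio of *Mllt10* to *Mllt6* was -0.87, -0.95 and -0.98 in the litter 1 controls, -1.21, -1.16 and -1.08 in their *Dot1l*-cKO littermates, -0.45 and -0.39 in the litter 2 controls, and -0.84 and -0.87 in their littermates. The *Dot1l*-cKO embryos were lower in both litters without overlap. The difference of the means was -0.31, from -0.73 ± 0.28 to -1.03 ± 0.17 (SD, n = 5 each), with p = 0.0167 in a two-sided exact permutation test within litters, the smallest that its 120 arrangements allow, and 0.0333 adjusted over the 2 ratios tested. Taken by litter, it came to -0.22 (litter 1) and -0.43 (litter 2), with exact permutation p of 0.1 and 0.333, the smallest possible in each. *Mllt10* (46.5% GC in its longest transcript) and *Mllt6* (58.0%) differ in base composition, and after a correction of each library for GC content, described with the base composition of all members, the difference was -0.18 (exact permutation p = 0.0167), and the *Dot1l*-cKO embryos were still below the controls of their litter. A ratio shows that both genes did not change alike and not which of them changed.

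The YEATS domain genes were *Mllt3* (AF9, chr4:87769925-88033364, minus strand) and *Mllt1* (ENL, chr17:56892611-56935415, minus strand). *Mllt3* was at 121, 124 and 132 CPM in the controls and at 136, 134 and 139 CPM in the *Dot1l*-cKO embryos of litter 1, and at 152 and 147 CPM against 139.9 and 140.3 CPM in litter 2. All *Dot1l*-cKO embryos were thus above the controls of litter 1 and below those of litter 2 (share over all tested genes not counted). The *Dot1l*-cKO values of both litters spanned a narrow range (134 to 140.3 CPM, against 121 to 152 CPM in controls). The log2 fold change was 0.03 over both litters (edgeR adjusted p = 0.731), 0.13 in litter 1 (0.342) and -0.09 in litter 2 (0.442). The test of the difference between the litters gave -0.22 (SE 0.08) with an edgeR adjusted p of 0.543 (0.0196 unadjusted).

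*Mllt1* was at 137, 159 and 160.4 CPM in the controls of litter 1 and at 169, 174 and 155 CPM in their *Dot1l*-cKO littermates, with litter 2 controls at 155 and 171 CPM and their littermates at 179 and 194 CPM. In 4 of 5 *Dot1l*-cKO embryos it was above all controls of the same litter (share over all tested genes not counted). Its log2 fold change of 0.15 (95% interval 0.03 to 0.27) had an edgeR adjusted p of 0.133. The log2 ratio of *Mllt3* to *Mllt1* was -0.21 ± 0.12 in controls and -0.33 ± 0.11 in *Dot1l*-cKO (SD, n = 5 each), and the difference of -0.12 did not pass (two-sided exact permutation test within litters, p = 0.2, adjusted p = 0.2 over the 2 ratios). It was -0.0061 in litter 1 and -0.29 in litter 2, and turned to 0.08 with the GC correction (exact permutation p = 0.117).

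Among the scaffold genes of the super elongation complex, none passed the test. *Aff4* (chr11:53350833-53421830, plus strand), the main scaffold of the complex, was at 307, 269.6 and 346 CPM in the controls and at 307, 318 and 323 CPM in the *Dot1l*-cKO embryos of litter 1, and at 364 and 360.1 CPM against 339 and 326 CPM in litter 2. The groups overlapped in litter 1, and the log2 fold change was -0.02 (95% interval -0.16 to 0.11, edgeR adjusted p = 0.850). *Aff1* (AF4, chr5:103692374-103855322, plus strand), the scaffold best known as a partner of MLL fusions, was at 18.5, 16.7 and 20.2 CPM in controls and ran from 17.4 to 20.8 CPM over 3 *Dot1l*-cKO embryos in litter 1, and at 24.7 and 24.3 CPM against 23.4 and 24.1 CPM in litter 2. Its log2 fold change was -0.0048 (95% interval -0.15 to 0.14, edgeR adjusted p = 0.981), and the 2 litters differed more than the 2 groups.

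*Aff3* (LAF4, chr1:38177326-38664955, minus strand), a scaffold with strong expression in the developing nervous system, had the largest positive estimate of the members. It was at 106, 100.5 and 104 CPM in controls and at 134, 117 and 113 CPM in *Dot1l*-cKO embryos of litter 1, where the groups did not overlap. The litter 2 controls were at 106 and 88.3 CPM and their littermates at 98.9 and 107 CPM, where they overlapped. The log2 fold change was 0.17 (95% interval 0.04 to 0.30, edgeR adjusted p = 0.130).

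The elongation factor gene *Ell* (chr8:70539457-70592858, plus strand) was at 27.4, 30.1 and 27.3 CPM in controls and at 25.6, 27.8 and 26.9 CPM in *Dot1l*-cKO embryos of litter 1, and at 26.6 and 30.6 CPM against 29.8 and 28.3 CPM in litter 2. The groups overlapped in both litters (log2 fold change -0.04, 95% interval -0.16 to 0.09, edgeR adjusted p = 0.759). *Cdk9* (chr2:32705784-32713076, minus strand), the kinase of P-TEFb, was at 90.1, 91.3 and 80.9 CPM in controls and at 77.8, 77.1 and 84.7 CPM in *Dot1l*-cKO embryos of litter 1, and at 82.6 and 88.4 CPM against 82.4 and 80.5 CPM in litter 2. In 4 of 5 *Dot1l*-cKO embryos it was below all controls of the same litter (share over all tested genes not counted). The log2 fold change of *Cdk9*, -0.11 (95% interval -0.21 to -0.0018), had an edgeR adjusted p of 0.222. *Mllt10* and *Cdk9*, the members with the lowest estimates, lie on chromosome 2, as does *E2f1*, where the strain name places the transgene, at distances of 136 and 122 megabases from it. Of the tested genes on chromosome 2, 3.53% passed, and 2.94% of those elsewhere.

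**Figure D3:**
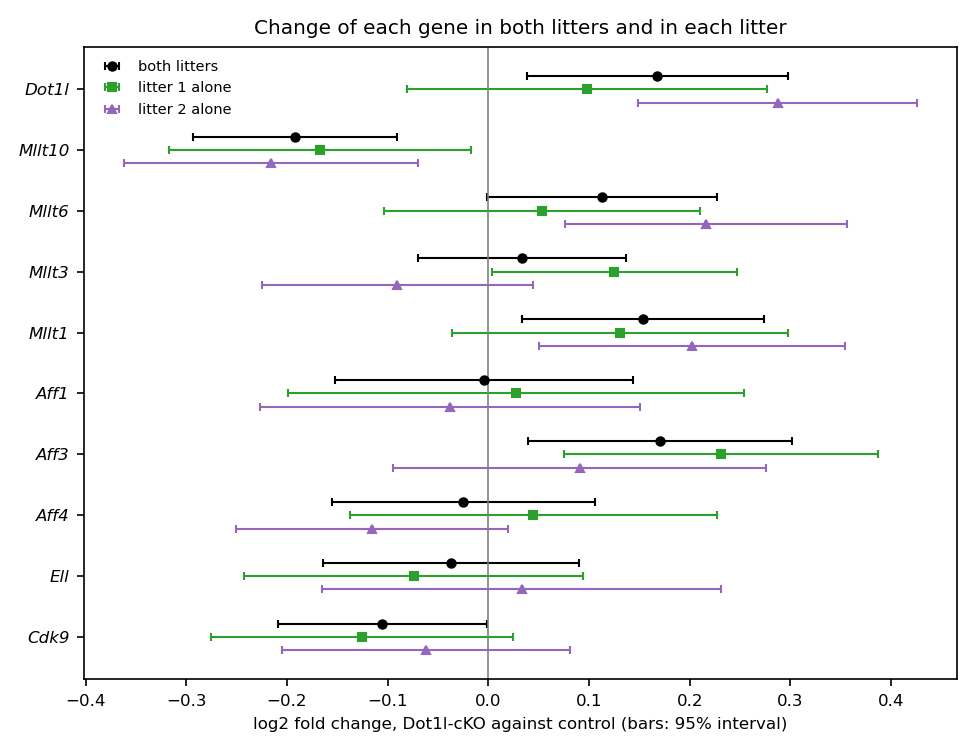
Log2 fold change of each gene, Dot1l-cKO against control, with its 95% interval from edgeR, over both litters (black circles), in litter 1 (green squares) and in litter 2 (purple triangles). Mllt10 lies below 0 in all 3 fits, and Mllt3 lies above 0 in litter 1 and below 0 in litter 2.

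Within single litters the estimates were less certain. In litter 1 alone (3 against 3) none of the 10 members passed, with 12 genes (0.0623%) called of all tested. The unadjusted edgeR p there was 0.0321 for *Mllt10*, 0.0450 for *Mllt3* and 0.00789 for *Aff3*, and above 0.05 for the other members. The share of all genes below 0.05 unadjusted was not counted in that fit, so these values are not read as a property of the members. In litter 2 alone (2 against 2), where 5.13% of genes were called, 1 member passed, *Dot1l*, whose log2 fold change of 0.29 (95% interval 0.15 to 0.43) had an edgeR adjusted p of 0.0240. *Mllt10* was at -0.17 (0.303) in litter 1 and -0.22 (0.0883) in litter 2 (log2 fold change with edgeR adjusted p). The difference of the effect between litters passed for none of the 10 members, including *Dot1l* (0.19, edgeR adjusted p = 0.682), and for 0.00978% of all genes tested in that fit. *Mllt3* had an unadjusted edgeR p of 0.0196 there, and the share of all genes below 0.05 unadjusted was not counted in that fit either. The part of *Xist* status in the litter 2 values was not tested within that litter, since it separates the same embryos as the genotype.

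The members were also compared between litters. In the same edgeR fit, 4 of the 10 members passed for litter 2 against litter 1, 3 higher and 1 lower, a share near the 34.7% of all tested genes that passed (16.9% higher and 17.8% lower). *Aff1* was higher in litter 2 by a log2 fold change of 0.37 (adjusted p = 9.04e-04), *Mllt10* by 0.22 (0.00231) and *Mllt3* by 0.15 (0.0309), whereas *Mllt6* was lower (-0.18, 0.0207). For *Aff1* and *Mllt3* all 4 embryos of litter 2 were above all 6 of litter 1, as for 11.9% of tested genes. For *Dot1l* the litter difference in this fit was 0.0025 (95% interval -0.13 to 0.13). In the controls alone the same 4 genes passed, among 24.5% of genes, but there the litter cannot be told apart from the number of floxed alleles. Markers of neural progenitors were also higher in litter 2 in 7 of 8 cases (summed level 2553 to 3152 CPM in litter 1 and 3770.1 to 3987 CPM in litter 2), and 6 of 8 ganglion neuron markers were lower (704.5 to 993 CPM and 422 to 576 CPM). Their part in the members' litter differences was not tested.

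Levels of different genes were compared per kilobase of exon, as the mean over the 10 embryos. *Mllt1* had the highest level (42.2 ± 4.01 CPM per kilobase, SD, n = 10), followed by *Aff4* (24.2 ± 2.10), *Cdk9* (18.1 ± 1.07), *Mllt6* (16.9 ± 1.54) and *Aff3* (16.1 ± 1.82). *Mllt10* (11.6 ± 1.33), *Dot1l* (11.5 ± 1.04) and *Mllt3* (11.4 ± 0.799) came next with ranges that overlapped almost wholly, then *Ell* (9.02 ± 0.533) and *Aff1* (2.20 ± 0.328 CPM per kilobase). The ranges over embryos did not overlap between *Mllt1* and *Aff4*, *Aff4* and *Cdk9*, *Mllt3* and *Ell*, or *Ell* and *Aff1*, and they did for every other pair of neighbours in this order. At E12.5 the level of ENL RNA was thus above that of its paralogue AF9, and *Aff4* above *Aff3* and *Aff1*. The relative spread over the 10 embryos ran from 5.91% (coefficient of variation, *Ell* and *Cdk9*) to 14.9% (*Aff1*).

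The members also differed in base composition, which moved with their estimates. *Mllt1* (59.5% GC in the longest transcript), *Mllt6* (58.0%), *Dot1l* (57.5%) and *Ell* (56.3%) lie in the highest of 4 equal classes of tested genes by GC content (above 54.2%), and *Mllt3* (41.4%) and *Aff4* (44.5%) in the lowest class (below 44.7%). Over all tested genes the median log2 fold change was -0.05, -0.03, 0.0024 and 0.08 from the lowest to the highest class, and Pearson's r of log2 fold change with GC was 0.20 over genes and 0.55 over the 10 members, which share their libraries. With a correction of each library for GC content the log2 fold change was 0.07 for *Dot1l* (edgeR adjusted p = 0.533), -0.0004 for *Mllt6* (0.998) and 0.0019 for *Mllt1* (0.990). *Ell*, in the same highest class, moved away from 0, from -0.04 to -0.11 (0.286). *Mllt3*, in the lowest class, moved from 0.03 to 0.08 (0.311). *Aff3*, in the middle of the range with 52.2% GC, was at 0.16 (0.170). *Mllt10* (46.5% GC) was at -0.18 (95% interval -0.28 to -0.08) with an edgeR adjusted p of 0.0571, so its value stayed and its call was lost, while 2.47% of all genes passed in that fit. After the correction *Dot1l* was still not lower, with a 95% interval of -0.05 to 0.18.

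**Figure D4:**
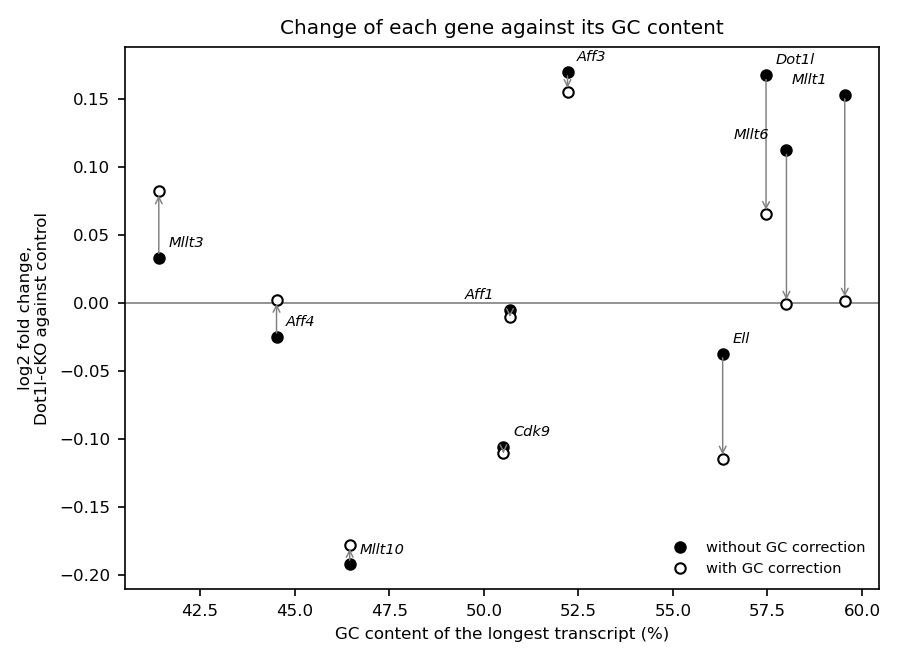
Log2 fold change of each gene, Dot1l-cKO against control, against the GC content of its longest transcript in percent, without (filled) and with (open) a correction of each library for GC content; arrows join the values of 1 gene. Dot1l moves from 0.17 to 0.07, Mllt6 and Mllt1 move to about 0, Ell and Mllt3 move away from 0, and Mllt10 and Aff3 nearly keep their values.

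The member whose level followed that of *Dot1l* most closely over the 10 embryos was *Mllt6*, with Pearson's r of 0.69 on log2 CPM, and 0.92 after the means of litter and group were removed. *Mllt1* was at 0.67 (0.56 after removal), *Cdk9* at -0.68 (-0.43) and *Mllt10* at -0.28 (0.50). The 5 protein-coding genes most like *Dot1l* among 12748 compared were *Whrn* (0.92), *AW011738* (0.92), *Rimbp3* (0.91), *Kif19a* (0.91) and *Phldb1* (0.89). These values are descriptions over 10 libraries that also share litter and base composition, and none of the 5 genes passed the test between groups.

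The other genes of the pathway were taken as 7 lists of 53 genes, all tested, and 1 of the 53 passed, *Hoxa7*, which rose (1.9% of all tested genes were called higher). *Hoxa7*, a homeobox gene known as a target of DOT1L in leukaemia, was at 43.9, 49.3 and 45.2 CPM in the controls and at 64.4, 60.6 and 50.5 CPM in the *Dot1l*-cKO embryos of litter 1, and at 50.4 and 49.2 CPM against 61.5 and 67.2 CPM in litter 2. The groups of 5 did not overlap, though the lowest *Dot1l*-cKO embryo lay just above the highest control, and 1.93% of all tested genes had such groups. The log2 fold change was 0.35 (SE 0.06, edgeR adjusted p = 0.0198) and 0.33 with the GC correction (0.0195). The call was lost with *Xist* as a covariate (0.137), without litter in the model (0.292) and in litter 1 alone (0.152). Omitting 1 embryo at a time kept the call in 6 of 10 fits (adjusted p 0.00117 to 0.0741), and it was lost without Ctr_181-4, Ctr_190-5, Mut_181-2 or Mut_190-6. Of the 7 genes in that list of targets described in other tissues, 5 were positive and 2 negative, with a median of 0.16.

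No gene of the other 6 lists passed in this test. Over all 53 genes 15 estimates were positive and 38 negative, with a median log2 fold change of -0.04, and 14 had an unadjusted p below 0.05. Of all tested genes 48.0% were positive and 21.7% had such a p. The pausing and elongation factor genes were negative in 8 of 8 cases with a median log2 fold change of -0.10. The smallest p were those of *Polr2a*, the largest subunit of RNA polymerase II (-0.17, edgeR adjusted p = 0.103), and *Supt5*, a subunit of DSIF (-0.10, 0.148). With the GC correction *Supt5* passed (-0.18, 0.0400). The PAF1 complex genes were negative in 6 of 6 cases with a median of -0.06, with *Leo1* (-0.08, 0.284) and *Ctr9* (-0.06, 0.426) at the smallest p. Of the MLL and SET1 complex genes 9 of 11 were negative (median -0.04), and the 2 with the smallest p had opposite signs, *Kmt2a*, the MLL methyltransferase (-0.32, 0.0726), and *Setd1b* (0.29, 0.0785), which was at 0.14 (0.2204) with the GC correction.

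Of the other super elongation complex and P-TEFb genes, 6 were positive and 6 negative (median 0.0039), with *Hexim2*, an inhibitor of P-TEFb (0.37, edgeR adjusted p = 0.0507), and *Larp7*, a subunit of the 7SK particle (-0.16, 0.103), at the smallest p. *Hexim2* lay just above the threshold and passed with limma-voom (0.0466), the robust edgeR fit (0.0452), scaling by library size only (0.0439), 10 counts or more required per embryo (0.0464) and no filter (0.00693), and not with the GC correction (0.0854). The H2B ubiquitination genes, whose mark stimulates DOT1L, had 1 positive and 4 negative estimates (median -0.04), with *Ube2a* at 0.10 (0.285) and *Ube2b* at -0.07 (0.386). The 4 other genes reported with DOT1L or against its mark had 1 positive and 3 negative estimates (median -0.07), with *Trrap* at -0.22 (0.119) and *Kdm2b* at 0.15 (0.141). DESeq2 called 5 of the 53 genes, *Hoxa7*, *Hexim2*, *Setd1b* and *Sgk1* higher and *Kmt2a* lower, among 8.3% of the genes to which it gave an adjusted p (4.74% higher and 3.56% lower). In litter 2 against litter 1, 18 of the 53 genes were higher and 3 lower past the edgeR threshold, against 16.9% and 17.8% of all tested genes.

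**Figure D5:**
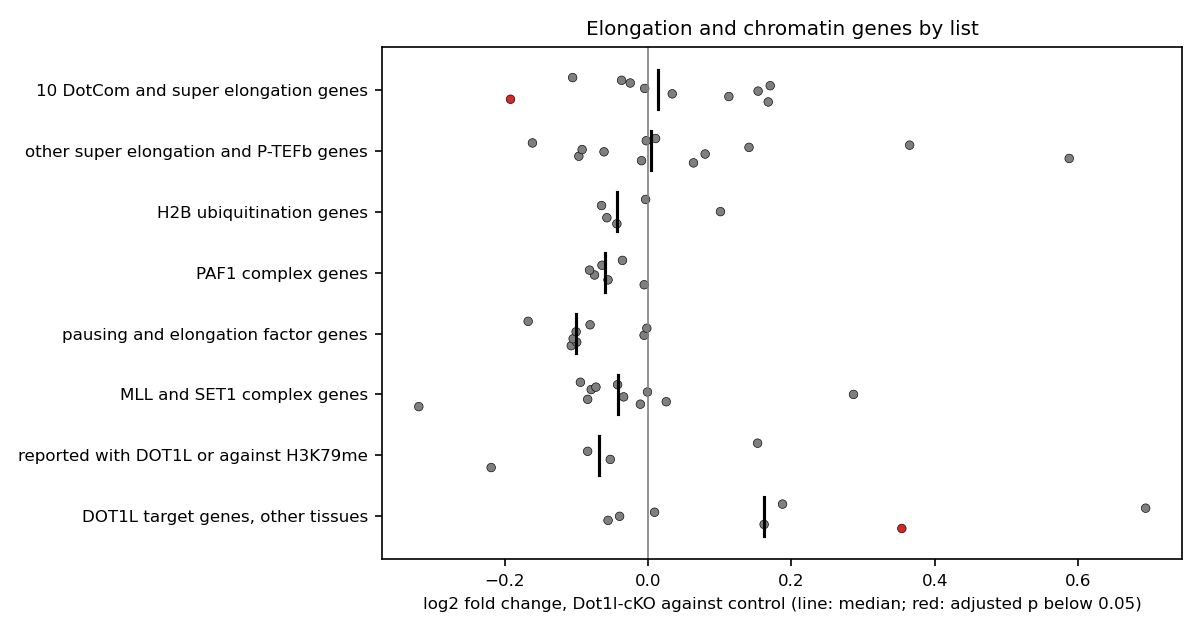
Log2 fold change, Dot1l-cKO against control, of the 10 genes and of the 53 other genes in 7 lists, 1 point per gene, with the median of each list as a line and genes with an edgeR adjusted p below 0.05 in red. Mllt10 (-0.19) and Hoxa7 (0.35) are the red points, and the 8 pausing and elongation factor genes all lie below 0.

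The markers of the cell types in the tissue were read from the same test. Of 8 progenitor markers, *Mki67*, a gene of dividing cells, decreased (log2 fold change -0.49, edgeR adjusted p = 0.0376), with a median of -0.09 over the list and summed levels of 2961 to 3987 CPM in controls and 2553 to 3902 CPM in *Dot1l*-cKO. This call was lost in 6 of 10 fits that omitted 1 embryo (without any 1 litter 1 control, Ctr_190-5, Mut_181-2 or Mut_190-6), in the robust edgeR fit (0.0958) and in each litter alone (0.130 and 0.0862). Of 8 ganglion neuron markers *Tac1* increased (0.76, 0.0213), with summed levels of 422 to 993 CPM and 489.8 to 929 CPM, and its call was lost in 3 of 10 such fits (without Ctr_181-9, Mut_181-2 or Mut_190-6). The 5 neural crest glia markers had summed levels of 109.9 to 238 CPM in controls and 163 to 223 CPM in *Dot1l*-cKO. None passed among the markers of neurons, mesenchyme, endothelium, microglia and erythroid cells, of which those with the smallest p are named. Of 8 neuron markers 6 were positive and 2 negative (median log2 fold change 0.04), and the negative ones were *Elavl4* (-0.11, edgeR adjusted p = 0.152) and *Nefm* (-0.15, 0.169). Of 6 mesenchyme markers 2 were positive and 4 negative (median -0.07, with *Lum* at -0.26, 0.126, and *Col3a1* at -0.25, 0.290). Of 4 endothelial markers 1 was positive and 3 were negative (median -0.21), with *Kdr* at -0.30 (0.106) and *Cdh5* at -0.24 (0.186). All 4 microglial markers were positive (median 0.11, with *Fcrls* at 0.21, 0.105, and *C1qa* at 0.20, 0.192), as were all 5 erythroid markers (median 0.12, with *Hba-a1*, which has a near-identical copy, at 0.80, 0.0563). With the GC correction *Nefm* passed (-0.26, 0.0248) and *Elavl4* was at -0.04 (0.638). The part of these cell types in the lower *Mllt10* was not tested.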

How the data were processed

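The authors deposited raw counts per gene of polyA RNA libraries, made with TrimGalore, STAR on mm10 and featureCounts on a GENCODE annotation in the snakePipes workflow. Gene names, lengths and positions came from a GENCODE annotation of GRCm38, the same build, and 54079 identifiers matched. Primer sequences came from the study's supplement. In R 4.3.3, edgeR 4.0.16 was used with TMM, its default expression filter (minimum count 10), its quasi-likelihood test and litter in the model. P-values were adjusted over all tested genes by Benjamini-Hochberg at 0.05. The SE was the log2 fold change divided by the square root of F. DESeq2 1.42.0 (the method of the study), limma 3.58.1, other filters, scalings and covariates, a correction for GC content (spline with 5 degrees of freedom) and fits without each embryo were alternatives. The ratios used a pseudocount of 0.5, and the likeness to *Dot1l* used log2 CPM with a prior count of 2 and a minimum mean of 1. Methods were tested on simulated data. All 20 same-group embryo pairs differed beyond sampling noise (chi-square per gene 8.90 to 82.2), and each embryo is 1 replicate. Named were all 10 members, in each other list the genes that passed or else the 2 with the smallest p, and the 5 genes most like *Dot1l*; *Sgk1*, *Dnajc1*, *E2f1*, *Xist* and *Ddx3y* were added after their values were seen. The members and lists were chosen with earlier results of these data known. Some genes that this rule names are not reported here.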

Additional observations from a re-analysis of the deposited data

Results flagged for a closer look

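*Mllt3* was singled out because all *Dot1l*-cKO embryos of 1 litter lay on the opposite side of their controls from those of the other. The share of all tested genes with such an opposite ordering was not counted, so it is not read as particular to *Mllt3*. Estimates of opposite sign in the litters were also found for *Aff1*, *Aff4* and *Ell*, where embryos of the groups overlapped in at least 1 litter. The 3 *Dot1l*-cKO embryos of litter 1 were above all of their controls (log2 fold change 0.13) and the 2 of litter 2 were below theirs (-0.09). The difference between the litters was -0.22 and missed the threshold in the interaction test (edgeR quasi-likelihood, adjusted p = 0.543 by Benjamini-Hochberg).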

How the results depend on the processing

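With 5 embryos per group in 2 litters, calls close to the threshold depended on the setting. The count of members called between *Dot1l*-cKO and control, 1 in the test reported, was 0 with limma-voom, with scaling by library size only, with the GC correction, without litter in the model, with litter and *Xist* as covariates and in litter 1 alone, and 4 (*Dot1l*, *Mllt10*, *Mllt1* and *Aff3*) without the expression filter, where 6.25% of all genes were called. The calls without the filter carry the limit given with *Mllt10*. In litter 2 alone the 1 member called was *Dot1l* and not *Mllt10*. The count ranged from 0 to 1 with each embryo left out. For *Mllt10* the edgeR adjusted p in the settings that ended its call was 0.0603 with library size only, 0.479 without litter and 0.274 with *Xist*, and its log2 fold change lay between -0.22 and -0.16 in all 22 alternatives. The count called between litters ranged from 2 (without Ctr_190-7) to 5 with each embryo left out. The log2 ratio of *Mllt10* to *Mllt6* kept its difference of -0.31 with p = 0.0714 when embryos were permuted across litters in an exact permutation test, and was -0.22 (p = 0.1) and -0.43 (p = 0.333) in single litters. It lay between -0.34 and -0.28 with each embryo left out. With the GC correction, added after the data were seen, the ratio of *Mllt10* to *Mllt6* differed by -0.18 (p = 0.0167, the smallest possible) and that of *Mllt3* to *Mllt1* turned to 0.0798 (p = 0.117, exact permutation tests). Signs turned for *Aff1* (0.0096 with library size only, 0.0036 without filter, 0.0400 with *Xist*, 0.0276 in litter 1), *Aff4* (0.0026 with GC correction, 0.0635 with *Xist*, 0.0447 in litter 1), *Mllt6* (-0.000435 with GC correction), *Mllt3* (-0.0903) and *Ell* (0.0331) in litter 2, and *Col3a1* (0.0940) and *Cdh5* (0.0135) in litter 2. With each embryo left out, *Aff1* ran from -0.0516 to 0.0293 and *Aff4* from -0.0776 to 0.0164. Of 220 member values 183 kept direction and side of the threshold, most of them of members that were not called in the test reported. The 15 values that lost a call were all of *Mllt10*. They came from 8 of 10 fits that omitted 1 embryo and from 7 of the 12 other alternatives. The alternatives for the 26 other named genes were added after the data were seen, and 504 of 572 such values kept direction and side of the threshold. *Hoxa7*, *Mki67* and *Tac1* lost their calls without litter (edgeR adjusted p 0.292, 0.7097 and 0.520), with *Xist* (0.137, 0.123 and 0.0627) and in litter 1 alone (0.152, 0.130 and 0.0823). *Mki67* also lost it in litter 2 alone (0.0862) and in the robust fit (0.0958), and *Tac1* in litter 2 alone (0.0819). The cause of these changes was not tested. No paired analysis was possible because the groups share no replicate numbers; litter was in the model.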
